A study of Mus musculus with 6 samples.

Results

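Immediate early genes are switched on within minutes of a stimulus, without new protein synthesis, when MAP kinase, calcium or cytokine signals reach factors already sitting on their promoters. Fos and Jun proteins pair through leucine zippers to form AP-1, a dimer whose makeup sets which targets are read and how strongly. In the infarcted heart, stretch, ischaemia and inflammation all feed this program, and infiltrating leukocytes, fibroblasts and surviving cardiomyocytes can each carry it. Of 10 listed genes of the class, 9 were rows of the deposited table of 12969 genes and were found by their symbol: Fos, Fosl2, Jun, Junb, Jund, Egr1, Atf3, Nr4a1 and Dusp1. Expression of Fosb is not analysed here. All but Dusp1, a phosphatase induced with the others, encode transcription factors.

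Bulk RNA-seq was run on infarct tissue of male mice about 12 weeks old, 4 days after permanent suture ligation of the left anterior coronary artery. The groups were 3 IRF3-/- libraries (Irf3KO) and 3 WT libraries, the WT labelled C57BL/6. The strain of the knockout and the deleted part of the gene are not stated in the labels. No unligated heart was analysed here, so the values cannot be set against tissue without an infarct, and the tissue mixes cell types, so fewer cells of a type and less RNA per cell cannot be told apart. The values were RPKM, reads scaled by the length of the gene and the size of the library. The steps between low values put the depth at 14.8, 18.1 and 61.9 M reads in Irf3KO replicates 1 to 3 and at 18.9, 20.8 and 15.7 M reads in WT replicates 1 to 3.

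Irf3, the targeted gene, stood at 7.4, 8.74 and 7.68 RPKM in Irf3KO replicates 1 to 3 and at 13.76, 13.87 and 11.56 RPKM in WT replicates 1 to 3, lower in every knockout library but still read. Such an arrangement was found in 11.8% of all genes tested. On the log2(RPKM + 1) scale the difference was -0.65 ± 0.18 (SE), and Irf3 itself was not called over all genes (limma adjusted p = 0.344). Of 66 markers listed for 7 cell types, 55 were in the table and 0 were at 0 in any library. The cardiomyocyte, macrophage, fibroblast and endothelial lists were read in all 6 libraries, and 1 of 9 lymphocyte markers was in the table. Irf3KO replicate 2 stood apart: genes with little GC read low in it and genes with much GC read high, so values that rest on it are also given without it.

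The promoter stretches below show letter matches to elements of a kind through which kinase signals can act. Also shown is the only match among them to the element that interferon regulatory factors bind. RefSeq windows of 300 bases (250 before to 50 after the start, GRCm38.p6) were found for 9 of the 10 listed genes, with Fosb and without Egr1, so they are not the same 9 as those measured. They are matched by symbol, in another build than the mm9 named in the submitters' processing notes, and no measured value was placed on these coordinates. In Fos, Nr4a1 and Dusp1 capitals mark TGACG, the core of the cyclic AMP response element, or its complement. In Jun capitals mark the variant AP-1 site TGACATCA, and in Fosl2 a match on the minus strand to the interferon-stimulated response element, searched as GAAA, 2 bases of any kind and GAAA.
Fos, chr12:85473750-85473879, plus strand: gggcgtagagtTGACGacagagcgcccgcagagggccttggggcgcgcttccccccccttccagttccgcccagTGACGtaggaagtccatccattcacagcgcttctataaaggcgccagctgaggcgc
Jun, chr4:95052223-95052342, minus strand: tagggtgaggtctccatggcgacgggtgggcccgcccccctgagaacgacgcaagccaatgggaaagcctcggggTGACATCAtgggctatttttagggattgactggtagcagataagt
Nr4a1, chr15:101266726-101266845, plus strand: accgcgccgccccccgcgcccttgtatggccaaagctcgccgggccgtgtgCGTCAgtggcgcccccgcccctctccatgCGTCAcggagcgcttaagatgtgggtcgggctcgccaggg
Dusp1, chr17:26508553-26508672, minus strand: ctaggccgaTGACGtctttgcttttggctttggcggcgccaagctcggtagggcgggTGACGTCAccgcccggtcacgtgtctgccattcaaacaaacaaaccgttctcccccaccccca
Fosl2, chr5:32136222-32136341, plus strand: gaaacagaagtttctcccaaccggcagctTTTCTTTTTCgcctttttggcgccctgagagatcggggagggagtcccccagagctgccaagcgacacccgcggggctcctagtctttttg

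On both strands the core TGACG was found in 6 of the 9 windows (Atf3, Dusp1, Fos, Fosb, Junb and Nr4a1), and in 20.8% of all 32851 windows of that length. Fos carries it 66 to 62 bases before its start. Dusp1 alone of the 9 holds the full palindrome TGACGTCA, 143 to 136 bases before its start, a sequence found in 1.79% of all windows, which gives the core on both strands. TGACATCA was found in Jun alone of the 9, 45 to 38 bases before the start, and in 3.62% of all windows. The Egr1 site GCGNGGGCG was in Fosb, Fosl2 and Nr4a1, and in 5.55% of all windows. The interferon-stimulated response element was matched in Fosl2 alone of the 9, 221 to 212 bases before its start, and in 3.44% of all windows. The AP-1 site TGANTCA and the CArG box, the element of serum response factor, were found in 0 of the 9 windows and in 7.81% and 1.63% of all windows. Sites more than 250 bases before a start, and any in Egr1, were not searched, so these genes may still carry them. A match is a run of letters and not a measured binding site.

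None of the 9 genes passed the test between genotypes. Of all 12913 genes tested, 0.503% were called at an adjusted p under 0.05 by limma, 0.147% higher (19 genes) and 0.356% lower (46 genes) in Irf3KO, and 0 of the 9 members were called in either direction. At an unadjusted p under 0.05 the members gave 1 gene, Dusp1, where all genes gave 8.4%. Without Irf3KO replicate 2 again 0 of the 9 were called, beside 0.75% of all genes, and 2, Fos and Dusp1, had an unadjusted p under 0.05, beside 7.88% of all genes. The median log2 fold change of the members was 0.16, with 7 values above 0 and 2 below, beside a median of -0.086 over all genes tested. The median of the members was -0.023 with that library left out, beside 0.011 over all genes. Dusp1 was the only member with all Irf3KO libraries above all WT libraries, an arrangement that 6.61% of all genes had. Fosl2 was the only member with all Irf3KO libraries below, as 11.8% of all genes were.

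**Figure D1:**
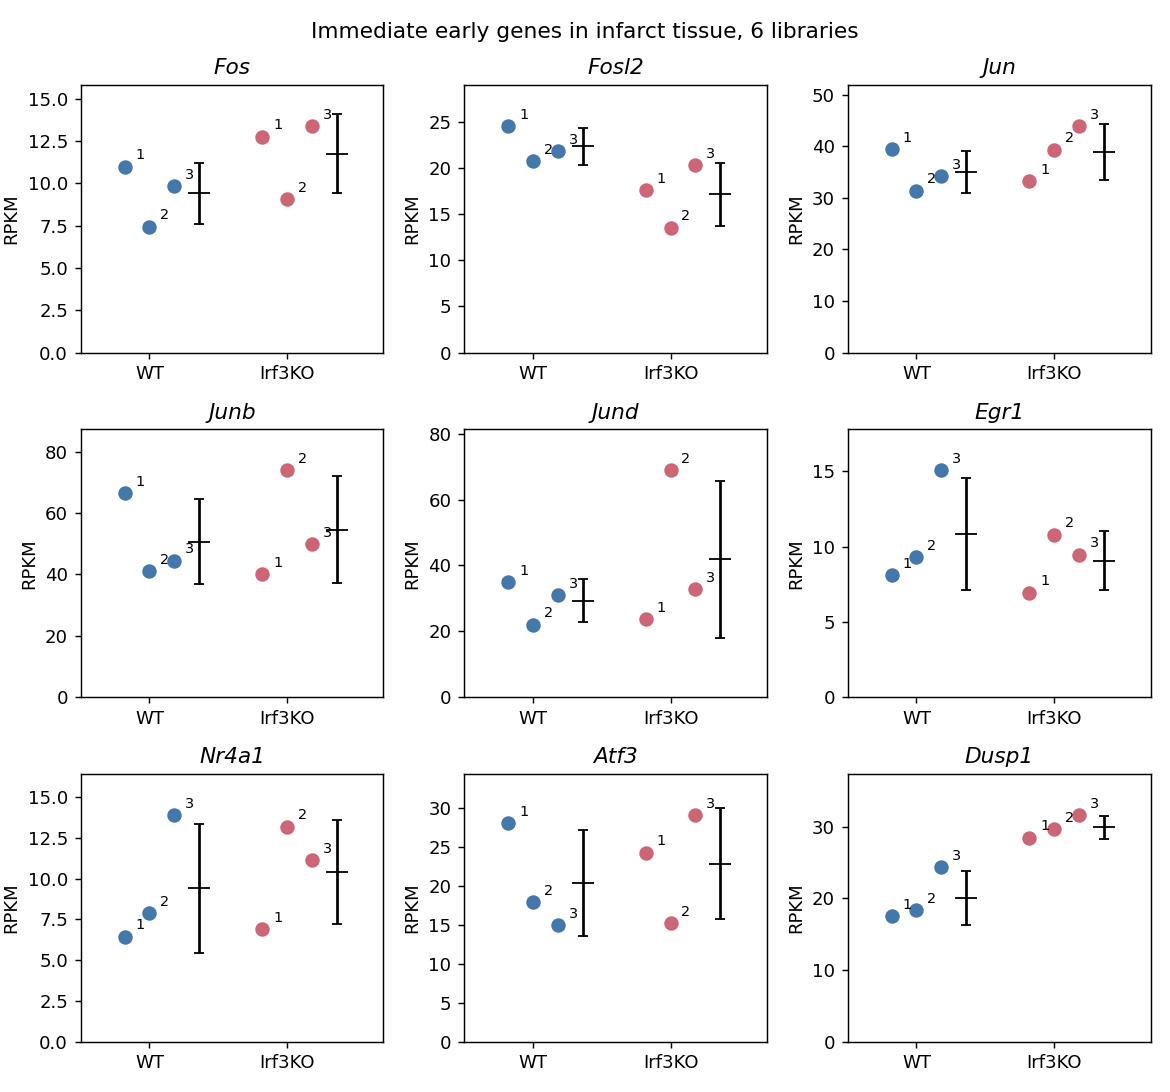
RPKM of each of the 9 genes in the 3 WT (blue) and 3 Irf3KO (red) libraries, numbered by replicate, with the mean and SD of each group as a bar beside the points. The groups overlap for every gene except Fosl2 and Dusp1, and Jund and Junb reach their highest value in Irf3KO replicate 2.

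In length-scaled level the members ran from Junb at 52.7 ± 14.2 RPKM (mean ± SD over all 6 libraries) to Nr4a1 at 9.91 ± 3.27 RPKM. Between them stood Jun at 37.0 ± 4.76, Jund at 35.6 ± 17.1, Dusp1 at 25.01 ± 5.98, Atf3 at 21.6 ± 6.38, Fosl2 at 19.7 ± 3.78, Fos at 10.6 ± 2.26 and Egr1 at 9.95 ± 2.83 RPKM. Junb lay above Jun in 6 of 6 libraries and Fosl2 above Fos in 6 of 6. Atf3 lay above Fosl2 in 4 of 6, Fos above Egr1 in 3 of 6 and Egr1 above Nr4a1 in 4 of 6, so these neighbours in the order did not separate beyond their spread. The summed RPKM of Jun, Junb and Jund stood above that of Fos and Fosl2 in each library, at 94.6 to 182 against 22.6 to 35.5. These sums, called the Jun and Fos families below, hold unequal numbers of genes, and Fosb and Fosl1 are not in the latter.

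Among the Fos family, the partners that cannot bind DNA without a Jun protein, Fos itself is the fast and short-lived member. Fos stood at 12.76, 9.07 and 13.4 RPKM in Irf3KO replicates 1 to 3 and at 10.99, 7.44 and 9.82 RPKM in WT replicates 1 to 3. Irf3KO replicates 1 and 3 were the highest libraries, and replicate 2 lay within the WT range. The group means were 11.7 ± 2.34 and 9.42 ± 1.81 RPKM (SD, n = 3 per group), which differ by 0.29 ± 0.23 (SE) on the log2(RPKM + 1) scale, Irf3KO minus WT (limma adjusted p = 0.578). Its 95% interval ran from -0.23 to 0.81. With Irf3KO replicate 2 left out it was 0.45 ± 0.18 (limma adjusted p = 0.596; interval 0.033 to 0.87), more than 1.5 times the value with all libraries. It was 0.19 without Irf3KO replicate 3 and 0.14 without WT replicate 2.

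Fosl2, which encodes Fra-2, a slower and longer-lived Fos protein known from fibrosis, went the other way. It stood at 17.62, 13.53 and 20.3 RPKM in Irf3KO replicates 1 to 3 and at 24.54, 20.69 and 21.77 RPKM in WT replicates 1 to 3. The groups did not overlap, but the nearest libraries, Irf3KO replicate 3 and WT replicate 2, were 20.3 and 20.69 RPKM. Its log2 fold change was -0.38 ± 0.20 (limma adjusted p = 0.556), with a 95% interval from -0.85 to 0.093, and an exact two-sided permutation test gave p = 0.1, the smallest that 3 against 3 allows. Leaving out Irf3KO replicate 2, its lowest library, gave -0.23 ± 0.15 (limma adjusted p = 0.792). The summed level of the 10 fibroblast markers ran from 3765 to 5196 RPKM in Irf3KO and from 5901 to 6599 RPKM in WT, also lower in each knockout library, and its part in the Fosl2 values was not tested. The Fosl2 promoter shown above carries the only match to the interferon-stimulated response element among the 9 windows, a run of letters found in 3.44% of all windows. Nothing in these data measures binding there.

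Of the Jun family, Jun is the strong activator of AP-1 and the most even of the 9 genes here. It stood at 33.28, 39.34 and 43.98 RPKM in Irf3KO replicates 1 to 3 and at 39.53, 31.42 and 34.21 RPKM in WT replicates 1 to 3. The groups overlapped, with the highest and the next-to-lowest library both from Irf3KO. For Jun the log2 fold change was 0.14 ± 0.20 (limma adjusted p = 0.729), with a 95% interval from -0.31 to 0.59. It was 0.25 without Irf3KO replicate 1, 0.051 without Irf3KO replicate 3, 0.23 without WT replicate 1 and 0.069 without WT replicate 2. Its residual SD within groups, 0.18 on the log2 scale, was the lowest of the members together with that of Dusp1, while the median over all genes tested was 0.30.

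Junb, a weaker activator that can hold Jun in check, stood at 40.03, 73.98 and 49.9 RPKM in Irf3KO replicates 1 to 3 and at 66.54, 41.18 and 44.54 RPKM in WT replicates 1 to 3. Each group had 1 library far above its other 2, Irf3KO replicate 2 and WT replicate 1, and the groups overlapped. The difference was 0.090 ± 0.29 on the log2 scale (limma adjusted p = 0.885), with an interval from -0.57 to 0.75, and without Irf3KO replicate 2 it was -0.15 ± 0.24 (limma adjusted p = 0.911). It was -0.041 without WT replicate 2.

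Jund, the Jun protein that resting cells hold most steadily, was the most uneven member. It stood at 23.67, 68.9 and 32.89 RPKM in Irf3KO replicates 1 to 3 and at 34.97, 22.01 and 31.06 RPKM in WT replicates 1 to 3. A single library, Irf3KO replicate 2, made the difference in the means of 41.8 ± 23.9 and 29.3 ± 6.65 RPKM, since the other 5 lay between 22.01 and 34.97 RPKM. The log2 fold change of 0.38 ± 0.38 (limma adjusted p = 0.637) became -0.045 ± 0.24 without that library (limma adjusted p = 0.970), and the interval with all libraries was the widest of the 9, from -0.48 to 1.24.

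The height of Jund and Junb in that library went with the GC content of their transcripts. Over the 11686 tested genes with a GENCODE transcript (90.5%), the median difference between Irf3KO replicate 2 and the mean of the other 5 libraries went from -0.72 on the log2 scale in the lowest of 10 equal bins by GC content to 0.48 in the highest. The transcripts of Jund and Junb held 67.1% and 62.6% GC, both in the highest bin, and the genes stood 1.25 and 0.63 above the other libraries there. Nr4a1, Egr1 and Jun, in the bin below, stood at 0.52, 0.17 and 0.12. Dusp1, with less GC at 54.0%, stood above Egr1 and Jun at 0.32, and Fosl2, Atf3 and Fos, at 53.1%, 52.2% and 51.9% GC, stood at -0.59, -0.52 and -0.21. With the median of each GC bin subtracted in every library, an alternative chosen after seeing the data, Jund was at 5.73 on the log2 scale in Irf3KO replicate 2 and at 4.65 to 5.14 in the others, and its log2 fold change was 0.22 (limma adjusted p = 0.684). That of Junb turned to -0.072 (limma adjusted p = 0.854). The highest bin spans 57.8% to 79.8% GC with a median of 59.5%, below both genes, so its median is a coarse correction for them. Jund stood 0.77 and Junb 0.145 above the median difference of that bin. The part of GC content in these values was not tested.

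**Figure D2:**
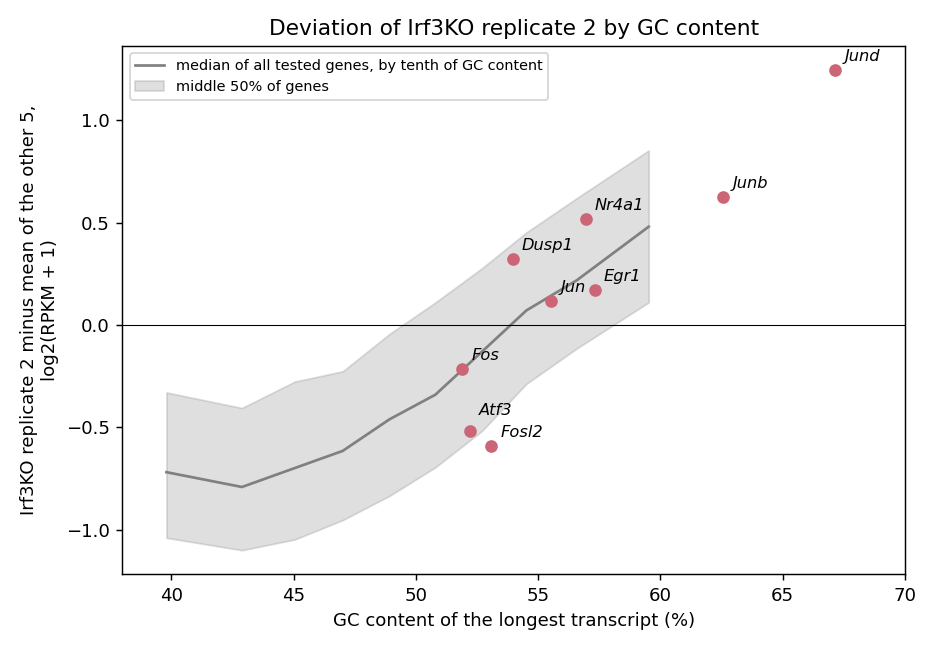
Difference between Irf3KO replicate 2 and the mean of the other 5 libraries, in log2(RPKM + 1), against the GC content of each gene's longest transcript; the line and band give the median and the middle 50% of all tested genes in 10 bins of GC content, the points the 9 members. Jund, at 67.1% GC and 1.25, and Junb, at 62.6% and 0.63, lie at the right end, where the median of the highest bin was 0.48.

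Egr1, a zinc finger factor that serum response factor and its partners switch on, stood at 6.95, 10.8 and 9.48 RPKM in Irf3KO replicates 1 to 3 and at 8.09, 9.31 and 15.08 RPKM in WT replicates 1 to 3. WT replicate 3 was well above the other 5 libraries, which lay between 6.95 and 10.8 RPKM. For Egr1 the log2 fold change was -0.21 ± 0.27 (limma adjusted p = 0.714; interval -0.82 to 0.41), and without Irf3KO replicate 2 it was -0.33 ± 0.26, past 1.5 times that value (limma adjusted p = 0.834). It was 0.039 without WT replicate 3. Nr4a1, the orphan nuclear receptor Nur77 that restrains inflammatory monocytes and macrophages, stood at 6.91, 13.18 and 11.14 RPKM in Irf3KO replicates 1 to 3 and at 6.44, 7.89 and 13.91 RPKM in WT replicates 1 to 3. Its high libraries were WT replicate 3 and Irf3KO replicate 2, its low ones WT replicate 1 and Irf3KO replicate 1, and the genotypes overlapped along nearly the whole range. The log2 fold change was 0.16 ± 0.32 (limma adjusted p = 0.818; interval -0.58 to 0.89), and -0.023 ± 0.32 without Irf3KO replicate 2 (limma adjusted p = 0.989) and -0.055 without WT replicate 1.

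Of the 8 other members, Nr4a1 was the nearest to Egr1 in pattern over the libraries. WT replicate 3 was also the WT library with the most cardiomyocyte transcripts. The median of the 12 cardiomyocyte markers relative to the WT mean was 0.73 there, 0.21 in WT replicate 2 and -0.82 in WT replicate 1, and 0.29, 1.104 and 0.54 in Irf3KO replicates 1 to 3. Their summed level ran from 13010 to 22860 RPKM in Irf3KO and from 6428 to 17439 RPKM in WT, and its part in the Egr1 and Nr4a1 values was not tested. The paralogues of the pair given here, named after their values were seen, all peaked in WT replicate 3 but did not share the height of Irf3KO replicate 2. Egr2 stood at 4.77, 2.67 and 5.28 RPKM in Irf3KO and at 3.8, 4.91 and 6.52 RPKM in WT, with its highest value in WT replicate 3 but its lowest in Irf3KO replicate 2. Egr3 stood at 2.16, 1.81 and 3.61 RPKM against 2.2, 2.62 and 4.16 RPKM, again highest in WT replicate 3 and lowest in Irf3KO replicate 2. Nr4a3 was a low transcript, at 0.82, 0.87 and 1.21 RPKM against 1.5, 1.14 and 2.06 RPKM, also highest in WT replicate 3.

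Atf3, a bZIP factor that stress and Toll-like receptor signals induce and that dampens cytokine genes, stood at 24.33, 15.24 and 29.19 RPKM in Irf3KO replicates 1 to 3 and at 28.09, 17.99 and 15.04 RPKM in WT replicates 1 to 3. The 2 lowest libraries, WT replicate 3 and Irf3KO replicate 2, came from different genotypes, as did the 2 highest. The log2 fold change was 0.16 ± 0.30 (limma adjusted p = 0.8002), with an interval from -0.54 to 0.86. It was 0.42 ± 0.26 with Irf3KO replicate 2 left out (limma adjusted p = 0.774), -0.029 without Irf3KO replicate 3 and -0.021 without WT replicate 3. Irf3KO replicate 2 was also the lowest library for macrophage markers: the median of the 11 tested was -1.14 relative to the WT mean there, 0.25 and -0.079 in Irf3KO replicates 1 and 3, and 0.55, -0.25 and -0.23 in WT replicates 1 to 3. WT replicate 3, the other low library for Atf3, was near WT replicate 2 in those markers, and their part in the Atf3 values was not tested.

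Dusp1, the dual-specificity phosphatase that removes activating phosphates from p38 and JNK and so closes the loop that induced it, had the largest difference of the 9. It stood at 28.5, 29.64 and 31.69 RPKM in Irf3KO replicates 1 to 3 and at 17.56, 18.32 and 24.37 RPKM in WT replicates 1 to 3. Every Irf3KO library was above every WT library, and the knockout libraries lay close together. The means were 29.9 ± 1.62 and 20.1 ± 3.73 RPKM (SD, n = 3 per group), a ratio of 1.49 and a log2 fold change of 0.57 ± 0.19 (SE), with a 95% interval from 0.12 to 1.01. The difference did not pass over all genes (limma adjusted p = 0.513), and an exact two-sided permutation test gave p = 0.1, the smallest possible. Leaving out Irf3KO replicate 2 gave 0.57 ± 0.18 (limma adjusted p = 0.425), and with GC content corrected it was 0.50 (limma adjusted p = 0.371). After that correction the Irf3KO libraries stood at 4.88 to 4.98 on the log2 scale and the WT libraries at 4.17 to 4.74, so the groups did not overlap then either. All 12 cardiomyocyte markers also had a log2 fold change above 0, beside 5261 of the 12913 genes tested. Their median was 0.57, or 0.40 without Irf3KO replicate 2, and their part in the Dusp1 values was not tested.

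**Figure D3:**
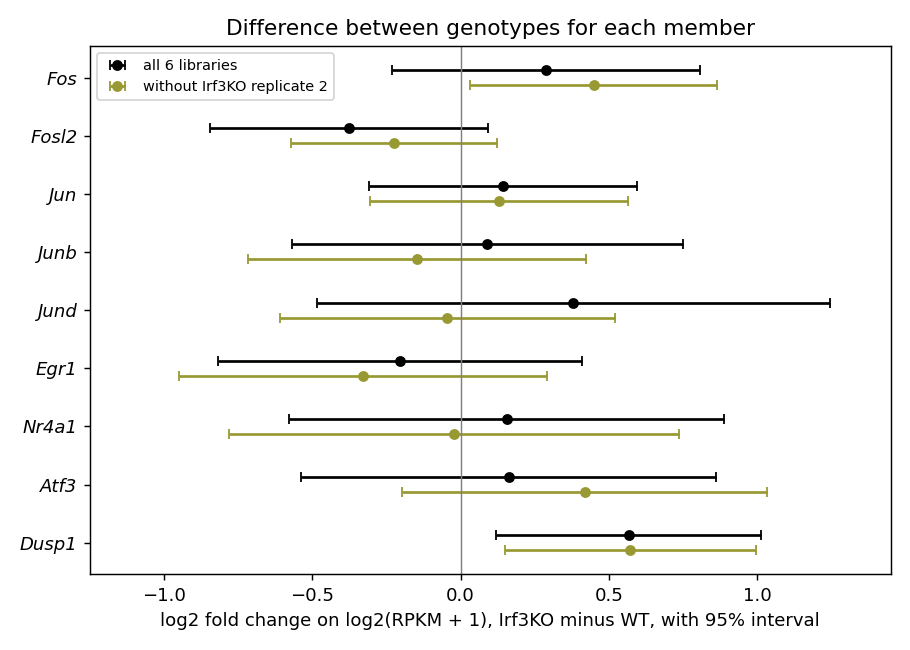
Log2 fold change of each member on the log2(RPKM + 1) scale, Irf3KO minus WT, with its 95% interval from limma, over all 6 libraries (black) and without Irf3KO replicate 2 (olive). With all libraries the interval of Dusp1, 0.12 to 1.01, is the only one that leaves out 0, and the values of Junb, Jund and Nr4a1 change sign without that library.

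Read number did not limit these values. The lowest number behind a member's value was about 253 reads, for Nr4a1 in Irf3KO replicate 1, where counting alone gives an SD of 0.091 on the log2 scale. The residual SD of Nr4a1 within groups was 0.48, and 5 of the 9 members had a residual SD above the median of 0.30 over all genes tested. The intervals above therefore reflect mostly the spread between libraries, and they leave room for changes of up to 1.24 on the log2 scale for Jund.

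The genes around the 9 in the pathway gave no call either. Of all genes tested, 0.503% were called and 8.4% had an unadjusted p under 0.05, the shares to set beside the counts below. Of 26 tested partners of AP-1 and other bZIP factors, 0 were called, 3 had an unadjusted limma p under 0.05, and the median log2 fold change was -0.18, or -0.062 without Irf3KO replicate 2. Those 3 were Ddit3, the stress factor CHOP, at -0.77 ± 0.27 (limma adjusted p = 0.520), Atf2, which pairs with Jun, at -0.67 ± 0.25 and Creb5 at -0.50 ± 0.19 (limma adjusted p = 0.556 for each). All Irf3KO libraries were below all WT libraries in 7 of the 26, these 3 among them, beside 11.8% of all genes. The reverse held in 0 of the 26, beside 6.61%. Without Irf3KO replicate 2 Ddit3, Atf2 and Creb5 stood at -0.51, -0.41 and -0.34.

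Of 40 other immediate early genes tested, 0 were called, 3 had an unadjusted p under 0.05, 18 had a value above 0 and 22 below, and the median was -0.074, or -0.029 without Irf3KO replicate 2. Gadd45b, a stress-induced activator of p38 signalling, stood at 16.71, 11.57 and 18.19 RPKM in Irf3KO and at 27.62, 25.84 and 22.11 RPKM in WT, a log2 difference of -0.69 ± 0.22 (limma adjusted p = 0.468). Zfp36l1, which speeds the decay of AU-rich mRNAs, was at -0.54 ± 0.20 (limma adjusted p = 0.554) and the kinase Plk2 at -0.66 ± 0.29 (limma adjusted p = 0.556). Without Irf3KO replicate 2 these 3 genes stood at -0.50, -0.39 and -0.42.

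Of the 16 dual-specificity phosphatases tested beside Dusp1, 0 were called, 3 had an unadjusted p under 0.05, and the median was -0.19, or -0.015 without Irf3KO replicate 2. All Irf3KO libraries were above all WT libraries in 0 of the 16, beside 6.61% of all genes, and below in 4, beside 11.8%. Dusp7, a phosphatase of ERK, stood at 17.7, 19.98 and 19.12 RPKM in Irf3KO and at 27.62, 24.74 and 27.6 RPKM in WT, a log2 difference of -0.47 ± 0.17 (limma adjusted p = 0.554). Dusp14 and Dusp19 were low transcripts, at -0.49 ± 0.20 and -0.41 ± 0.18 (limma adjusted p = 0.556 for each). Without Irf3KO replicate 2 Dusp7, Dusp14 and Dusp19 stood at -0.51, -0.38 and -0.28.

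Of 30 MAP kinases and their kinases, 0 were called, 3 had an unadjusted p under 0.05, and the median of -0.039 turned to 0.080 without Irf3KO replicate 2. Mapkapk2 and Mapkapk3, the related kinases that p38 activates, went apart. Mapkapk2 stood at 127.96, 290.91 and 149.32 RPKM in Irf3KO and at 99.52, 97.03 and 108.82 RPKM in WT, a log2 difference of 0.80 ± 0.32 (limma adjusted p = 0.556) that was 0.44 without Irf3KO replicate 2. Mapkapk3 stood at 6.33, 6.87 and 6.83 RPKM in Irf3KO and at 13.97, 8.59 and 11.67 RPKM in WT, a log2 difference of -0.67 ± 0.21 (limma adjusted p = 0.464) that was -0.69 without that library. Map2k3, the kinase above p38, was at 0.54 ± 0.22 (limma adjusted p = 0.556), and at 0.34 without it.

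Among 16 genes of serum response and Egr cofactors 0 were called and 1 had an unadjusted p under 0.05. The median was -0.13, or -0.051 without Irf3KO replicate 2, and the 3 with the smallest p were the acetyltransferase Crebbp at -0.59 ± 0.22, the Egr corepressor Nab1 at -0.62 ± 0.31 and the acetyltransferase Ep300 at -0.47 ± 0.24 (limma adjusted p = 0.556 for each). With that library left out they stood at -0.40, -0.26 and -0.24. Heat shock genes, which rise with immediate early genes when tissue is warmed or handled, were not called (0 of 12, and 0 with an unadjusted p under 0.05), with a median of -0.17, or -0.084 without Irf3KO replicate 2. Hsph1, Hspa1b and Hsp90aa1 stood at -0.58 ± 0.28, -0.44 ± 0.22 and -0.41 ± 0.23 (limma adjusted p = 0.556 for each), and at -0.27, -0.31 and -0.20 with that library left out.

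**Figure D4:**
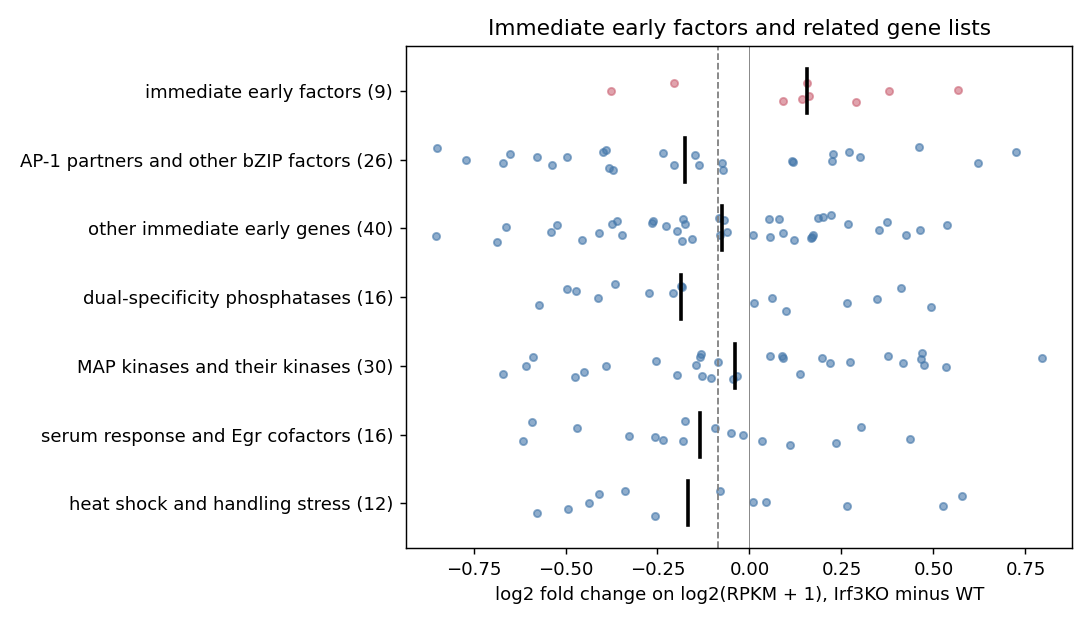
Log2 fold change of each tested gene, Irf3KO minus WT, for the 9 members (red) and for 6 lists of related genes (blue), with the number of genes in parentheses; black bars are medians and the dashed line is the median of all genes tested, -0.086. The median of the members was 0.16 and those of the other lists ran from -0.19 to -0.039, and without Irf3KO replicate 2 these were -0.023 and -0.084 to 0.080.

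Genes with the pattern nearest to a member were sought among the 8695 others with a mean of at least 5 RPKM, by the root mean square difference between profiles standardized over the 6 libraries, in SD units. For Fos these were Agap1 and Stom (0.24 and 0.30, where the median over all candidates was 1.33), for Jun Spata2 and Prkd2 (0.19 and 0.20; median 1.47), and for Egr1 Dnm1 and Zfyve21 (0.12 and 0.25; median 1.53). For Atf3 they were Mta2, a subunit of a chromatin remodelling complex, and the mitotic checkpoint gene Bub3 (0.063 and 0.080; median 1.21). For Jund they were 2810432D09Rik and Sepx1, a selenoprotein (0.085 and 0.096; median 1.66). The nearest member was farther away in each case: Atf3 for Fos at 0.72, Junb for Jun at 0.83, Nr4a1 for Egr1 at 0.53, Fos for Atf3 at 0.72 and Junb for Jund at 0.47. With 6 libraries and 8695 candidates some close profiles are found for any gene. Far fewer members than candidates were searched, so a nearest member farther away was nearly fixed in advance, and nothing is drawn from it.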

How the data were processed

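The authors deposited 1 table of RPKM values, rounded to 2 decimals, beside gene lengths in bases. STAR 2.3.0, HTSeq 0.6.0, edgeR 3.8.6, Picard 1.100 and SAMtools 0.1.18.0 and the build mm9 are named in the submitters' processing notes. How they were set, how strand was handled and how genes were filtered is not given in the sources used. In 5 lines part of a gene name had moved into a value cell and was put back. Depth came from the 1-read steps of low values, all of which lay within 0.2 reads of a whole number. Because the values are RPKM, genes averaging 1 RPKM or more were compared by limma (version 3.58.1, R version 4.3.3) after taking log2(RPKM + 1) (trended eBayes, two-sided, Benjamini-Hochberg over 12913 genes, threshold 0.05). Fold changes on that scale understate low genes. Replicates carry no label of shared origin, so p-values measure only the spread between these libraries. The fit was tested on simulated data. Members, gene lists, markers and alternatives were chosen with earlier results of these data known. All members were named, and of each related list the 3 genes with the smallest p. The 2 genes nearest in pattern were named for 5 members. GC content is that of the longest GENCODE M21 transcript, matched by symbol. Alternatives changed the pseudocount, the filter on low values, the scaling, library weights, the trend, the replicate block and the libraries used.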

Additional observations from a re-analysis of the deposited data

How the results depend on the processing

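Of 135 values of single members under the 15 alternatives, 122 kept their direction and their side of the threshold. The number of genes called, 65, was 34 with a mean of at least 5 RPKM, 100 with GC content corrected (chosen after seeing the data), 250 with the replicate block, 2960 with array weights and 21 to 97 with 1 library left out. No member was called under any alternative except array weights, where 4 were: Fos (0.66), Jun (0.38), Atf3 (0.61) and Dusp1 (0.68). The default algorithm for these weights did not converge, and the gene-by-gene one gave Irf3KO replicate 3 a weight of 6.36 and WT replicate 2 one of 4.40, against 0.10 to 1.003 for the others, so that fit rests mostly on 1 library per genotype. With 1 library left out the log2 fold change ran from -0.15 to 0.30 for Junb, -0.045 to 0.71 for Jund, -0.055 to 0.45 for Nr4a1, -0.029 to 0.42 for Atf3 and -0.37 to 0.039 for Egr1, and these 5 changed sign. With GC content corrected Junb was at -0.072. The cause of these shifts was not tested. Median-of-ratios scaling moved the median of all genes from -0.086 to 0.020 and that of the members from 0.16 to 0.27, and no member changed sign. Dusp1 ran from 0.48 to 0.71 and Fosl2 from -0.50 to -0.087 over all alternatives. Same-numbered libraries of the 2 genotypes did not deviate together (correlations of 0.13, -0.098 and -0.10, and 2 of 6 libraries nearest to their own number), so the numbers were not taken to pair the libraries. The replicate block called 0 members.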

Other observations

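The balance between the 2 Fos genes differed between genotypes in every library, a ratio chosen after its values were seen and given with no test. Fosl2 over Fos in RPKM was 1.38, 1.49 and 1.51 in Irf3KO replicates 1 to 3 and 2.23, 2.78 and 2.22 in WT replicates 1 to 3. The means were 1.46 ± 0.072 and 2.41 ± 0.32 (SD, n = 3 per group). A ratio within a library does not depend on how libraries are scaled to each other, and it does not say which of the 2 genes moved. In transcript GC content the genes are close, at 53.1% for Fosl2 and 51.9% for Fos. The part of GC content and of the lower fibroblast markers in the ratio was not tested. The ratio sets the only member with all Irf3KO libraries below all WT libraries against one that leaned higher, which favours a separation. How many other gene pairs separate in this way was not counted. Dusp1 over Fos and the Jun family over the Fos family overlapped between genotypes.

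Within the Jun family, Junb gave 39.4% to 47.2% of the summed RPKM in all 6 libraries. Jund gave 37.8% in Irf3KO replicate 2 and 23.3% to 28.3% in the other 5, and Jun gave 21.6% there and 28.0% to 34.7% elsewhere.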
